A study of Homo sapiens with 9 samples.

Results

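The features described here are rows of the deposited gene tables that have an exon length of 0. They were chosen as rows that lie outside the mitochondrial genome, do not have a name ending in -AS1, -AS2 or -AS3, and hold at least 100 gene reads summed over the 9 libraries. Of the 57773 features in the tables, 149 met this rule. Before the read limit, 20928 features met it, of which 1922 had at least 1 read. The members were thus chosen by their summed gene reads, and no difference between groups entered the choice. Just inside the limit, RP11-71H17.9 and RP11-121C2.2 had 101 reads each, and just outside it RP11-474O21.5 had 98 and RP3-467N11.1 had 96.

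RNA was sequenced from HepG2, an established human hepatocellular carcinoma line kept below 25 passages. Cultures were exposed for 72 h to 125 µM TBOEP (the organophosphate flame retardant tris (2-butoxyethyl) phosphate), to 2.5 µM TBOEP, or to the solvent alone, with 3 cultures in each group. All 3 groups contained 0.1% DMSO, and each culture was seeded, dosed, extracted and sequenced apart from the others, per the labels' protocols. Total gene reads ran from 2480964 to 11885877 per library. Levels are given as CPM, the gene reads of a row scaled to a common library total with TMM factors. The hepatocyte genes ALB, APOB, TF and SERPINA1 had 6775 CPM or more in every library, PTPRC of leukocytes had 0 reads, and COL1A1 of fibroblasts had 18 reads in all. Intron reads made up 5.50%, 5.28% and 4.91% of nuclear gene reads at 125 µM, 7.74%, 5.33% and 4.93% at 2.5 µM, and 7.24%, 7.22% and 6.14% in DMSO.

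An exon length of 0 is a property of the annotation used for counting, not of the RNA. A long noncoding RNA can be transcribed from a single exon, a pseudogene is a copy of a gene that usually no longer encodes its protein, and the 3′ untranslated region (3′ UTR) of a coding gene can run well past the end that an older annotation gives it. Reads that fall on such a row are counted as intron reads and receive no RPKM, because RPKM divides by exon length. In all 9 libraries every one of the 149 members had all of its reads classed as intron reads, 0 exon reads and an RPKM of 0. Their gene reads are therefore the measure used below.

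The members were sorted by name and by what GENCODE v44 on GRCh37 places at their position. Structured RNAs of RNA polymerase III were set by name and numbered 3 (RN7SL2, RN7SL3 and RN7SK). Pseudogenes, set by GENCODE gene type or by name, numbered 37. Stretches that lie at least 80% within the 3′ UTR of a coding gene numbered 34. The remaining 75 are called long noncoding RNAs here, a class for which no GENCODE noncoding gene was required. Most of the members carried clone names (119 of 149), and 107 matched a GENCODE gene, of which 105 had a single exon. Spans ran from 152 to 9346 bp with a median of 2049 bp. No other feature of the tables overlapped 133 of the members, while 16 shared bases with one. Whether the counting used strand is not given in the sources used here, so the reads of those 16 and of their partners cannot be told apart.

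Sequences that bear on the values below are shown first. LINC00657, now named NORAD, is known for binding Pumilio proteins, which recognise the element TGTANATA in RNA. On the annotated strand its span of 5339 bases held 15 matches to TGTANATA, and 1 on the other strand. Of its 17 successive windows of 300 bases, 9 (52.9%) held a match, against 19 of 749 windows (2.54%) in the other members with an annotated strand, and the next highest count in a member was 6. The stretch of 120 bases with most matches, at chr20:34637635-34637754 on the minus strand of GRCh37, has its 2 matches in capitals.
LINC00657: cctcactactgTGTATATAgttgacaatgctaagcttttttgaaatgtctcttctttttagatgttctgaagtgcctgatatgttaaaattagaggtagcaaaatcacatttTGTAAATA
For 3 pseudogenes, chosen after their values were seen, the gap-free coding stretch of 60 bases with most differences from the parent gene is printed. The differences are in capitals. The stretch of RPL3P4 is chr14:99439543-99439602 on the minus strand, that of NONOP2 is chr2:61164623-61164682 on the minus strand, and that of EIF3FP3 is chr2:58479277-58479336 on the plus strand, all on GRCh37.
RPL3P4: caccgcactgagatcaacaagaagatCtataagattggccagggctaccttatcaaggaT
RPL3: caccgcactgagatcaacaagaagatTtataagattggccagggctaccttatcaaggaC
NONOP2: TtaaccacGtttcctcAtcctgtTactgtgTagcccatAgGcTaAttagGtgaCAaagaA
NONO: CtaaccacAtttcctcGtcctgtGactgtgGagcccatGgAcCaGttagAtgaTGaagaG
EIF3FP3: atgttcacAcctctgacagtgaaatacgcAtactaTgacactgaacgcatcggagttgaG
EIF3F: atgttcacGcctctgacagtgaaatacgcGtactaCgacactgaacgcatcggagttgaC
Over the whole alignment RPL3P4 was 99.5% identical to RPL3, EIF3FP3 97.6% identical to EIF3F, and NONOP2 80.0% identical to NONO. In NONOP2 100% of stretches of 50 bases were absent from the parent's transcripts, in EIF3FP3 47.8% and in RPL3P4 22.2%. Members MIR4453 and MIR24-2 each contain a microRNA hairpin, whose mature products are printed from RefSeq with the seed (bases 2 to 8) in capitals.
hsa-miR-4453: gAGCUUGGucuguagcgguu
hsa-miR-24-3p: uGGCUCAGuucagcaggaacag
hsa-miR-24-2-5p: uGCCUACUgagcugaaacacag
The 3 seeds differ from each other, and long-RNA libraries measure the host transcript and not the mature product.

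Together the members held a small share of the gene reads in each group. The share was 0.134%, 0.132% and 0.138% at 125 µM, 0.146%, 0.132% and 0.131% at 2.5 µM, and 0.140%, 0.149% and 0.134% in DMSO. All 3 groups overlapped, and exact two-sided permutation tests over libraries gave p = 0.30 for 125 µM against DMSO, 0.50 for 2.5 µM against DMSO and 1.0 for 125 µM against 2.5 µM, where the smallest p that 3 against 3 allows is 0.10. LINC00657 alone supplied 36.2% of the 89828 member reads, and the 5 members with most reads supplied 50.7%. By class, long noncoding RNAs held 61.2% of member reads, 3′ UTR stretches 21.2%, pseudogenes 14.9% and structured RNAs 2.68%.

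Most of the members that passed the test at 125 µM against DMSO were lower at 125 µM. Of 148 members with enough reads to be tested, 8 were higher and 31 lower at an adjusted p under 0.05 (edgeR's quasi-likelihood test, Benjamini-Hochberg over all 12901 tested features). That is 26.4% of the members, where 40.2% of all tested features were called. Higher calls made up 5.41% of members against 20.3% of all features, and lower calls 20.9% against 19.9%. These shares were not compared by a test, and a member that missed the threshold is not shown to be equal between groups. The median log2 fold change was -0.19 over the members and 0.00 over all features. The 125 µM and DMSO libraries did not overlap in 50 members, or 33.8%, against 50.9% of all features. In these bulk libraries, fewer cells that make an RNA and less of it per cell cannot be told apart. Among the 132 tested members that overlap no other feature, 8 were higher and 28 lower.

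Shares of calls also differed between kinds of other rows. Features with annotated exons and 100 to 3998 reads, the range of all members but LINC00657, were called in 37.6% of 8967 cases, with 20.4% higher and 17.1% lower. By contrast, the 1364 features that have exons but hold most of their reads in introns were called higher in 6.16% of cases and lower in 30.6%, with a median log2 fold change of -0.45. The intron share of nuclear reads was lower in every 125 µM library than in every DMSO library, as given above, and its part in the members' falls was not tested.

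At 2.5 µM, 2 of the 148 members were lower than DMSO and 0 higher, or 1.35%, against 11.0% of all features in either direction and 5.03% lower, and 20 had an unadjusted p under 0.05. Between 125 µM and 2.5 µM, 1 member was higher and 10 lower, or 7.43%, against 14.9% of all features in either direction, 7.48% higher and 7.44% lower. Groups did not overlap in 24 members (16.2%, against 28.2% of all features) between 2.5 µM and DMSO, and in 34 (23.0%, against 32.8%) between 125 µM and 2.5 µM. These comparisons share libraries with the first. The number of calls at 125 µM against DMSO was 22 without the second 125 µM library or without the first DMSO library, and 24 with DESeq2, and in each of these cases 3 were higher. At 2.5 µM it was 0 without the third 2.5 µM library or without the first DMSO library, 1 without the third 125 µM or the third DMSO library, and 7 without the second DMSO library. For 125 µM against 2.5 µM it was 4, 5 and 7 without the second, first and the third 125 µM library, and 7 without the first 2.5 µM library.

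**Figure D1:**
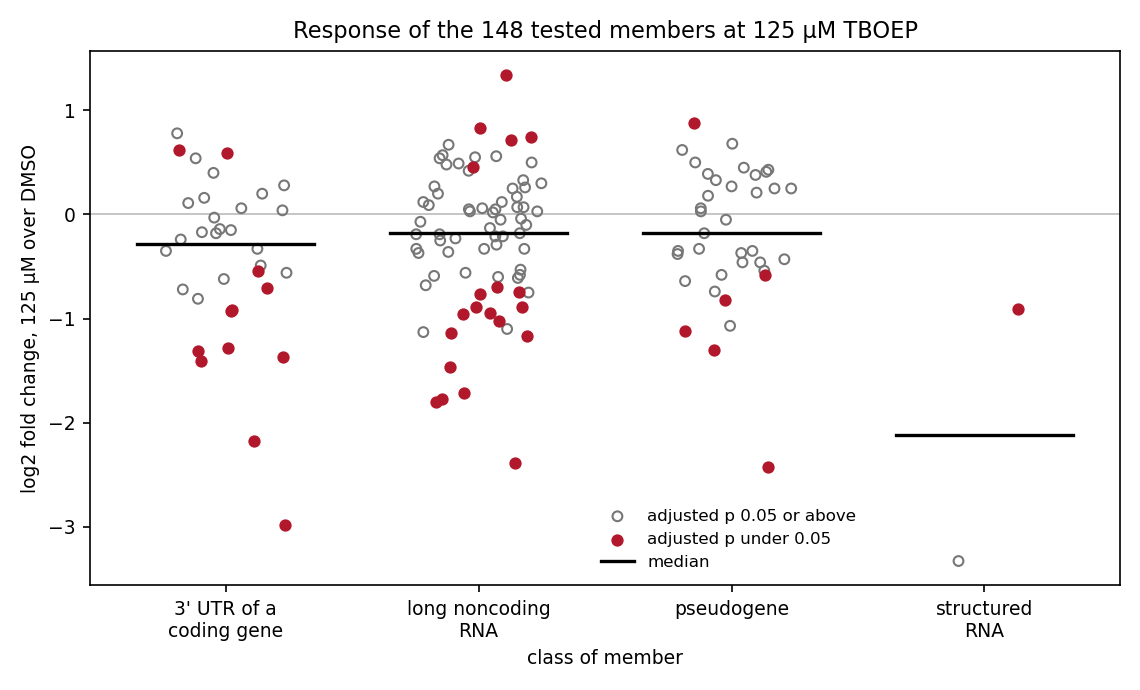
Each point is 1 of the 148 tested members, placed by class along the x axis and by its log2 fold change at 125 µM over DMSO along the y axis. Filled points had an adjusted p under 0.05, and the black bars are class medians, which lie at -0.29, -0.18, -0.18 and -2.12 from left to right. They are taken over 34, 75, 37 and only 2 tested members.

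Among long noncoding RNAs, 5 of 75 were higher and 15 lower at 125 µM than in DMSO, 0 passed the test at 2.5 µM (8 had an unadjusted p under 0.05), and 4 were lower and 0 higher at 125 µM than at 2.5 µM. At 125 µM against DMSO that is 26.7% called and 6.67% called higher, beside 40.2% and 20.3% of all tested features. The share called lower was within 1 percentage point of the 19.9% over all features. Of all features 11.0% were called at 2.5 µM against DMSO. At 125 µM against 2.5 µM 14.9% were, beside 5.33% of this class. The most abundant, LINC00657 (NORAD, chr20:34633544-34638882 on GRCh37), is a cytoplasmic RNA known for limiting Pumilio activity and preserving chromosome stability. It had 505, 509 and 528 CPM at 125 µM, 453, 516 and 517 CPM at 2.5 µM, and 479, 525 and 515 CPM in DMSO. The 3 groups overlapped, the log2 fold change at 125 µM was 0.02 (SE 0.08, adjusted p = 0.861), and at 2.5 µM it was -0.03 (SE 0.08, adjusted p = 0.845). Per kilobase of span it averaged 96.3 CPM at 125 µM, 92.8 at 2.5 µM and 94.8 in DMSO, whereas the median member had 1.94 CPM per kilobase in DMSO.

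Among falls that held under all 17 alternatives, a large one was in RP11-223I10.1, a single-exon noncoding RNA beside C2orf72 at chr2:231916755-231917352. Its level was 2.06, 1.41 and 1.84 CPM at 125 µM, 6.02, 7.34 and 2.83 CPM at 2.5 µM, and 10.1, 8.51 and 8.21 CPM in DMSO. The 125 µM libraries lay below all 6 others, and the 2.5 µM libraries below all DMSO libraries. The log2 fold change was -2.39 at 125 µM over DMSO (SE 0.29, adjusted p = 3.27e-05) and -1.81 over 2.5 µM (SE 0.30, adjusted p = 0.00120). C2orf72 itself was lower by less, at -0.34 (SE 0.09, adjusted p = 0.00941).

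Further noncoding RNAs fell at 125 µM. The single-exon RNA at chr10:88509511-88516055, which ends 352 bp from BMPR1A, a receptor of bone morphogenetic proteins, had 0.728, 1.58 and 0.734 CPM at 125 µM, 2.20, 2.04 and 1.21 CPM at 2.5 µM, and 5.45, 2.18 and 3.85 CPM in DMSO. All 125 µM libraries were below all DMSO libraries, with a log2 fold change of -1.80 (SE 0.40, adjusted p = 0.00260), beside -0.40 for BMPR1A (SE 0.11, adjusted p = 0.00810). KB-1460A1.5, named ZNNT1 in GENCODE, lies 8249 bp from ZNF706 and had 1.82, 0.830 and 1.10 CPM at 125 µM against 5.24, 3.17 and 3.85 CPM in DMSO, a log2 fold change of -1.77 (SE 0.40, adjusted p = 0.00317). RP11-552M11.8 near OVGP1 had 0.728, 0.913 and 1.47 CPM at 125 µM against 3.15, 2.57 and 3.59 CPM in DMSO, or -1.72 (SE 0.37, adjusted p = 0.00194). The groups did not overlap in either, and both calls held under all 17 alternatives. OVGP1 itself fell by 0.93 (SE 0.22, adjusted p = 0.00345). RP6-42F4.1 fell by 1.02 (SE 0.37, adjusted p = 0.0391), a call lost with DESeq2, without the first or the third 125 µM library and without the first or the third DMSO library. RP11-552M11.8 and RP6-42F4.1 were also lower at 125 µM than at 2.5 µM, at -1.19 (SE 0.38, adjusted p = 0.0477) and -1.13 (SE 0.36, adjusted p = 0.0445). Those calls ended with DESeq2 and without any 1 of 8 libraries in RP11-552M11.8 and of 5 in RP6-42F4.1, and that of RP11-552M11.8 also without a filter on low counts.

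RP11-196G18.22, RP13-516M14.1, LINC00528, CTB-58E17.1 and RP11-21L23.2 were named after their values were seen, and RP11-196G18.22 and CTB-58E17.1 share bases with another feature. The partner of CTB-58E17.1 is CTB-58E17.3, too low to be tested. MLLT6, the tested gene nearest to CTB-58E17.1, fell by 0.60 at 125 µM over DMSO (SE 0.10, adjusted p = 2.64e-04). RP11-196G18.22 had 5.34, 5.48 and 5.14 CPM at 125 µM, 8.89, 7.53 and 5.66 CPM at 2.5 µM, and 11.6, 9.50 and 9.49 CPM in DMSO, and no groups overlapped. It fell by 0.95 at 125 µM over DMSO (SE 0.19, adjusted p = 0.00128). RP13-516M14.1 had 3.28, 2.66 and 0.367 CPM at 125 µM, 4.02, 4.74 and 4.04 CPM at 2.5 µM, and 8.91, 5.94 and 5.39 CPM in DMSO. Its groups also lay apart, at -1.47 for 125 µM over DMSO (SE 0.33, adjusted p = 0.00257). LINC00528 near BID, a proapoptotic gene, fell by 0.70 (SE 0.22, adjusted p = 0.0193). CTB-58E17.1 had 4.85, 3.73 and 5.87 CPM at 125 µM, 8.70, 9.39 and 8.89 CPM at 2.5 µM, and 11.0, 7.12 and 5.64 CPM in DMSO. It was lower at 125 µM than in DMSO (-0.89, SE 0.25, adjusted p = 0.0105), where the groups overlapped, and lower by 1.0 on the log2 scale than at 2.5 µM (SE 0.24, adjusted p = 0.0137), where they did not. RP11-21L23.2 near TSKU rose by 0.83 (SE 0.29, adjusted p = 0.0355) with overlapping groups. The calls of LINC00528, CTB-58E17.1 and RP11-21L23.2 ended without the second 125 µM library. All 3 also ended without the first DMSO library, other than that of CTB-58E17.1 over 2.5 µM, which ended without the second 2.5 µM library. Those of LINC00528 and RP11-21L23.2 ended without the third DMSO library as well, and without the first (LINC00528) or the third (RP11-21L23.2) 125 µM library. That of LINC00528 also ended with DESeq2 and without a filter.

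The largest rise among the tested members was in RP1-39G22.7, the divergent transcript of ZMPSTE24, a metalloprotease that matures prelamin A. It had 5.58, 6.97 and 4.04 CPM at 125 µM, 4.78, 3.44 and 2.83 CPM at 2.5 µM, and 1.78, 2.57 and 3.08 CPM in DMSO. Every 125 µM library was above every DMSO library, and the log2 fold change was 1.34 (SE 0.29, adjusted p = 0.00232), with 0.75 at 2.5 µM (SE 0.31, adjusted p = 0.130). ZMPSTE24, whose span starts 140 bp away, had a log2 fold change of 0.04 (SE 0.12, adjusted p = 0.830). RP11-138A9.2, located 2099 bp from LINC-PINT, rose by 0.72 (SE 0.24, adjusted p = 0.0293), while LINC-PINT, a long noncoding RNA induced by p53, fell by 0.75 (SE 0.20, adjusted p = 0.00710). RP1-239B22.5 rose by 0.46 (SE 0.15, adjusted p = 0.0258). In GENCODE its span overlaps that of the coding gene KCNJ11, which was too low to be tested. NCR3LG1, the nearest tested gene, was at 0.14 (SE 0.12, adjusted p = 0.353). RP1-140K8.5 had 42.5, 51.8 and 36.3 CPM at 125 µM, 30.3, 39.6 and 49.7 CPM at 2.5 µM, and 16.7, 42.9 and 22.6 CPM in DMSO. It rose by 0.74 (SE 0.26, adjusted p = 0.0347) although its second DMSO library lay within the 125 µM range. PRPF4B, its nearest tested gene, fell by 0.69 (SE 0.10, adjusted p = 1.62e-04). Without the first DMSO library the calls of RP11-138A9.2, RP1-239B22.5 and RP1-140K8.5 ended. They also ended without the second 125 µM library or the third DMSO library for RP11-138A9.2, the first or the third 125 µM library for RP1-239B22.5, and the first or second 125 µM or the third DMSO library for RP1-140K8.5. All 3 ended with DESeq2, that of RP1-239B22.5 also without a filter and that of RP1-140K8.5 with robust dispersion. LINC00938, beside ARID2, had 14.8, 14.7 and 17.6 CPM at 125 µM, 13.8, 14.7 and 14.5 CPM at 2.5 µM, and 17.5, 15.6 and 14.6 CPM in DMSO. Its groups at 125 µM and in DMSO overlapped, and its log2 fold change was -0.07 (SE 0.13, adjusted p = 0.707), whereas ARID2 fell by 0.67 (SE 0.11, adjusted p = 3.91e-04).

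Divergent transcripts start near a coding gene's promoter and run the other way. GENCODE names 10 of the members so, and these were looked at together after their values were seen. At 125 µM 1 was higher and 3 lower than DMSO, beside 40.2% of all features called in either direction, and their median log2 fold change was -0.31. Of their 10 coding genes 2 were higher and 1 lower. The falls were in CTD-2186M15.3, the divergent transcript of the Golgi protein gene GOLPH3 (-0.96, SE 0.30, adjusted p = 0.0187), in RP11-332H14.2 beside C2orf49 (-0.76, SE 0.19, adjusted p = 0.00623) and in RP11-47A8.5 beside TRIM8 (-0.74, SE 0.19, adjusted p = 0.00671). Of the coding genes beside these 3, GOLPH3 also fell (-0.31, SE 0.08, adjusted p = 0.00515), C2orf49, which shares bases with RP11-332H14.2, was at -0.26 (SE 0.10, adjusted p = 0.0552), and TRIM8 was at -0.08 (SE 0.10, adjusted p = 0.574). The coding genes that rose were MRPL20, of the mitochondrial ribosome (0.44, SE 0.10, adjusted p = 0.00251), and WASL, an activator of actin assembly (0.22, SE 0.08, adjusted p = 0.0486), whose divergent transcripts did not pass the test, at -0.53 and -0.18. The call of CTD-2186M15.3 ended with DESeq2, without the first or second 125 µM library or the second DMSO library, and that of RP11-332H14.2 without the second 125 µM library.

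MIR4453 and MIR24-2 are the members that hold a microRNA. MIR4453 had 5.10, 5.56 and 6.24 CPM at 125 µM, 5.74, 3.25 and 5.66 CPM at 2.5 µM, and 3.25, 2.57 and 6.16 CPM in DMSO. Its groups overlapped, with a log2 fold change of 0.55 at 125 µM (SE 0.31, adjusted p = 0.172). MIR24-2, whose row spans 1844 bp and ends in the hairpin of miR-24, had 3.03, 2.32 and 2.57 CPM at 125 µM, 0.956, 3.53 and 3.23 CPM at 2.5 µM, and 3.98, 3.76 and 4.10 CPM in DMSO. All 6 TBOEP libraries were below all DMSO libraries, yet neither contrast passed the test, at -0.58 for 125 µM (SE 0.37, adjusted p = 0.231) and -0.72 for 2.5 µM (SE 0.38, adjusted p = 0.236).

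The 34 members within a 3′ UTR lie beyond the end that the deposited annotation gives to the coding gene, at a distance of 253 to 21915 bp with a median of 2311 bp. They were placed in this class by position, without regard to strand. Some, among them CTC-462L7.1 and RP1-178F10.3, also match a GENCODE gene by span. At 125 µM 2 of the 34 members were higher and 10 lower than DMSO. Among their 34 coding genes 7 were higher and 5 lower, or 12 in all, as many as among the members. The members' calls were 5.88% higher and 29.4% lower, or 35.3% in all, beside 20.3%, 19.9% and 40.2% of all tested features. The median log2 fold change was -0.29 for these members and 0.10 for the coding genes, beside -0.19 over members of all classes and 0.00 over all features. The member was below its gene in 24 of 34 pairs. At 2.5 µM over DMSO it was also below in 24 of 34. There 1 member was called, lower, or 2.94%, beside 11.0% of all tested features in either direction. Between 125 µM and 2.5 µM, 1 member was higher and 3 lower, or 11.8%, beside 14.9% of all tested features. At 125 µM over DMSO both were called in the same direction in 4 pairs and in opposite directions in 2. In 6 pairs the member alone was called. The difference between a member and its gene was not tested, and members lower than their genes include features with few reads. CTC-297N7.8, CTC-462L7.1, RP11-479G22.8, GS1-358P8.4, RP11-137H2.6, RP11-175O19.4, AC005943.5 and RP11-383J24.6 in this class were named after their values were seen, because they completed the 12 calls.

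**Figure D2:**
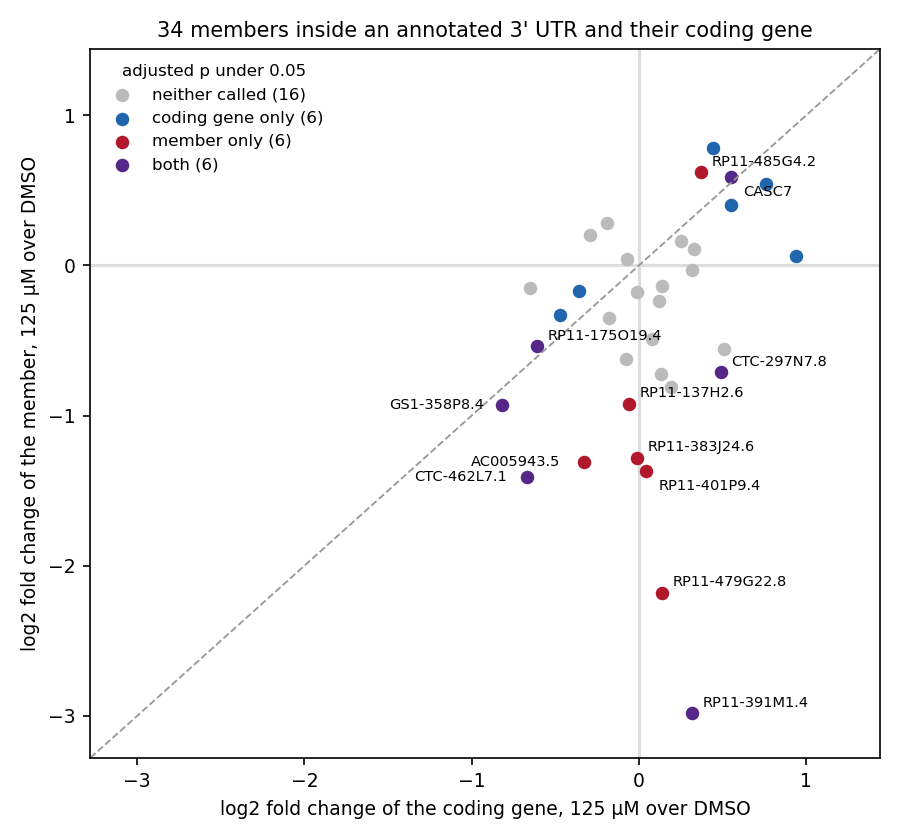
The log2 fold change at 125 µM over DMSO of each member within a 3′ UTR (y axis) is plotted against that of its coding gene (x axis) for 34 pairs, with the dashed line at equality. Members that passed the test are labelled, and 24 points lie below the line.

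RP11-401P9.4 (chr16:50679720-50683160) had the smallest adjusted p of any member. It lies 9073 bp past the annotated end of NKD1, an intracellular inhibitor of Wnt signalling that Wnt itself induces. The member had 22.1, 23.2 and 23.1 CPM at 125 µM, 41.8, 44.9 and 41.6 CPM at 2.5 µM, and 65.5, 62.3 and 47.2 CPM in DMSO. No 2 of the 3 groups overlapped. Its log2 fold change was -1.37 at 125 µM over DMSO (SE 0.12, adjusted p = 3.02e-06), -0.46 at 2.5 µM over DMSO (SE 0.11, adjusted p = 0.0214) and -0.92 at 125 µM over 2.5 µM (SE 0.12, adjusted p = 2.63e-04). NKD1 had 403, 410 and 431 CPM at 125 µM, 446, 458 and 444 CPM at 2.5 µM, and 412, 403 and 397 CPM in DMSO, with a log2 fold change of 0.04 at 125 µM (SE 0.07, adjusted p = 0.726). For every 100 NKD1 reads there were 5.50 ± 0.139 reads on the member at 125 µM, 9.52 ± 0.253 at 2.5 µM and 14.4 ± 2.20 in DMSO (SD, n = 3 each). The call at 2.5 µM ended without the third 2.5 µM library or the first DMSO library, and those of the other contrasts held under all 17 alternatives.

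CASC7, in contrast, moved with its coding gene AGO2, the Argonaute protein that cleaves microRNA targets. CASC7 had 71.7, 81.7 and 78.9 CPM at 125 µM, 47.0, 58.9 and 59.8 CPM at 2.5 µM, and 46.7, 55.4 and 53.4 CPM in DMSO. Every 125 µM library was above all 6 others, which overlapped, and the log2 fold change was 0.59 over DMSO (SE 0.11, adjusted p = 7.41e-04) and 0.50 over 2.5 µM (SE 0.11, adjusted p = 0.00685). The second of these calls ended without the second 125 µM library. AGO2 rose by 0.55 at 125 µM over DMSO (SE 0.10, adjusted p = 8.73e-04). Per 100 AGO2 reads, CASC7 held 129 ± 5.09 at 125 µM, 115 ± 13.3 at 2.5 µM and 129 ± 22.7 in DMSO (SD, n = 3 each).

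CTC-297N7.8 and its coding gene SCO1, a copper chaperone for cytochrome c oxidase, went in opposite directions. The member had 7.77, 7.39 and 9.54 CPM at 125 µM, 11.2, 11.6 and 8.48 CPM at 2.5 µM, and 14.4, 12.3 and 11.8 CPM in DMSO. The 125 µM libraries were all below the DMSO libraries, at -0.71 (SE 0.17, adjusted p = 0.00407). SCO1 rose by 0.49 (SE 0.11, adjusted p = 0.00345). The member's reads per 100 SCO1 reads were 27.5, 26.5 and 33.3 at 125 µM, 45.2, 52.5 and 37.5 at 2.5 µM, and 75.7, 62.6 and 52.9 in DMSO, and no groups overlapped.

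RP11-391M1.4, past the ribosomal protein gene RPL14, made up the other opposite pair but rested on few reads. It had 4, 4 and 0 reads at 125 µM, 24, 20 and 4 at 2.5 µM, and 46, 3 and 8 in DMSO. The log2 fold change was -2.98 (SE 0.67, adjusted p = 0.00282), and without the first DMSO library it was -1.80 with an adjusted p of 0.075. RPL14 rose by 0.32 (SE 0.09, adjusted p = 0.0104). At 125 µM over 2.5 µM the member was at -2.48 (SE 0.70, adjusted p = 0.0281), and that call ended without any 1 of the 3 libraries at 125 µM and without the first or second at 2.5 µM. RP11-479G22.8, past the integrin gene ITGB1, had 9, 5 and 2 reads at 125 µM, 14, 28 and 5 at 2.5 µM, and 53, 9 and 4 in DMSO. Its fall of -2.18 (SE 0.59, adjusted p = 0.00855) became -1.02 with an adjusted p of 0.23 without the first DMSO library, and also ended without the second 125 µM library.

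Members that fell together with their coding gene were CTC-462L7.1 (-1.41, SE 0.22, adjusted p = 2.18e-04) with STXBP4 (-0.67, SE 0.16, adjusted p = 0.00381), GS1-358P8.4 (-0.93, SE 0.24, adjusted p = 0.00645) with the pyruvate dehydrogenase kinase gene PDK3 (-0.82, SE 0.26, adjusted p = 0.0196), and RP11-175O19.4 (-0.54, SE 0.19, adjusted p = 0.0327) with the corepressor gene LCOR (-0.61, SE 0.17, adjusted p = 0.0112). Per 100 STXBP4 reads, CTC-462L7.1 held 10.1 ± 1.87 at 125 µM, 17.7 ± 1.80 at 2.5 µM and 17.1 ± 1.65 in DMSO (SD, n = 3 each). Per 100 PDK3 reads, GS1-358P8.4 held 78.1 ± 13.1 at 125 µM, 78.8 ± 18.4 at 2.5 µM and 81.1 ± 10.6 in DMSO. The first DMSO library was the highest in both PDK3 (19.4, 9.70 and 11.3 CPM in DMSO) and LCOR (175, 102 and 105 CPM). Calls of the coding genes are given for the main fit only. CTC-462L7.1 was also lower at 125 µM than at 2.5 µM (-0.96, SE 0.23, adjusted p = 0.0118), a call lost without the first 125 µM or the second 2.5 µM library. RP11-137H2.6 past FAM213A, a peroxiredoxin-like gene, was called without its gene (-0.92, SE 0.21, adjusted p = 0.00311, against -0.06 for FAM213A). So were RP11-401P9.4 and RP11-479G22.8, described above, AC005943.5 past MBD3 (-1.31, adjusted p = 0.0194), RP11-383J24.6 past TMEM65 (-1.28, adjusted p = 0.0173) and, in the other direction, RP11-485G4.2 past the glycerol kinase gene GK5 (0.62, adjusted p = 0.0440). The calls of GS1-358P8.4, RP11-175O19.4, AC005943.5, RP11-383J24.6 and RP11-485G4.2 ended without the first DMSO library, and all but that of GS1-358P8.4 with DESeq2. They also ended without the first or second 125 µM library, other than for GS1-358P8.4, with further libraries for RP11-175O19.4 (the third DMSO library) and RP11-485G4.2 (the third 125 µM, the second 2.5 µM, and the second and the third DMSO library, and no filter).

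Abundant members within the 3′ UTR of TRIM56, GLG1 and SMCR8 did not pass the test. RP11-395B7.7 past TRIM56, an antiviral ubiquitin ligase, had 21.6, 20.6 and 18.0 CPM at 125 µM, 19.9, 20.2 and 14.5 CPM at 2.5 µM, and 24.6, 23.7 and 23.6 CPM in DMSO. Both TBOEP groups were below the DMSO group without overlap, with log2 fold changes of -0.24 (SE 0.13, adjusted p = 0.159) at 125 µM and -0.35 (SE 0.13, adjusted p = 0.0976) at 2.5 µM. RP11-252A24.7 past GLG1 was at 0.04 (SE 0.15, adjusted p = 0.873) and RP1-178F10.3 past SMCR8 at -0.17 (SE 0.18, adjusted p = 0.476) at 125 µM, with overlapping groups.

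Of the 37 pseudogenes, 1 was higher and 5 lower at 125 µM than in DMSO, 1 was lower at 2.5 µM, and 2 were lower at 125 µM than at 2.5 µM. At 125 µM against DMSO that is 2.70% higher and 13.5% lower, both below the 20.3% and 19.9% of all tested features. At 2.5 µM against DMSO 2.70% were called, beside 11.0% of all features, and at 125 µM against 2.5 µM 5.41%, beside 14.9%. A parent gene in the tables was found for 25, from 21 genes. Among these 25, 4 pseudogenes were called at 125 µM against DMSO, all lower. Of the 21 parents 8 were called, 2 of them lower, beside 40.2% of all tested features called in either direction. The median log2 fold change was -0.35 for the pseudogenes and 0.12 over the same 25 pairs for the parents. At 2.5 µM against DMSO 8 of the 21 parents were called, 0 of them lower, beside 11.0% of all tested features called in either direction. The 25 pseudogenes had 0 calls in that contrast. The difference between a pseudogene and its parent was not tested. How the counting shared reads between near-identical copies is not given in the sources used here, so levels of pseudogenes close to their parent are uncertain. The deposited unique gene reads differed from the total gene reads in 1 to 4 of the 149 members per library. With unique reads, 39, 2 and 11 members of all classes were called in the 3 contrasts, the same numbers as with total reads. Because so few rows differed, these counts cannot show how reads of near-identical copies were shared.

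**Figure D3:**
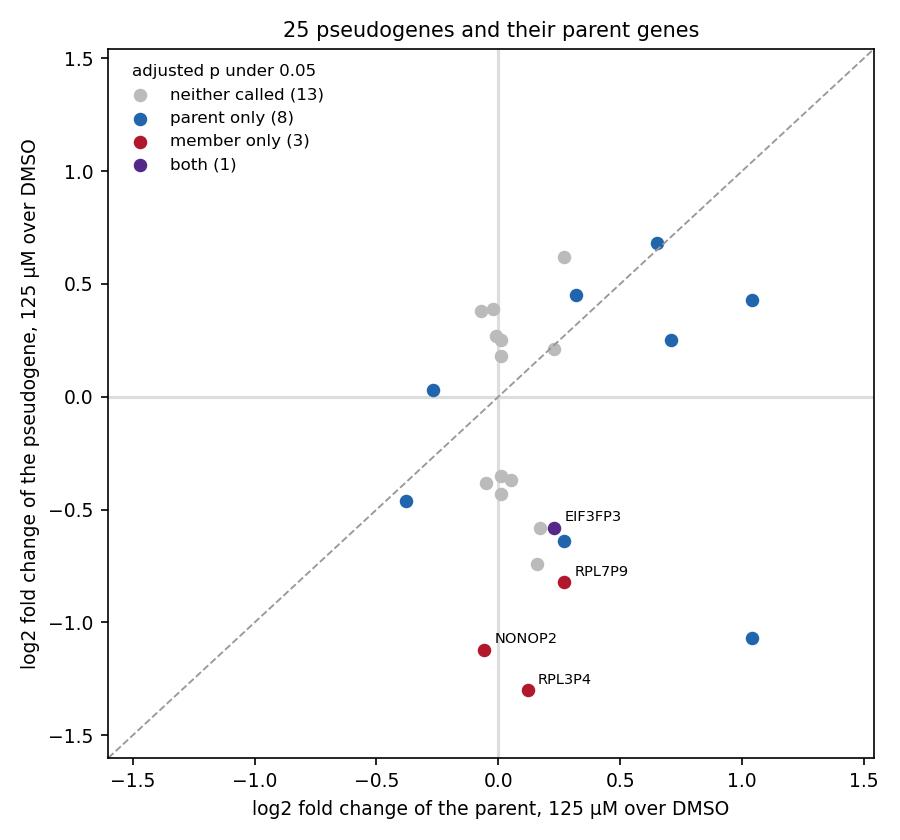
The log2 fold change at 125 µM over DMSO of 25 pseudogenes (y axis) is plotted against that of the parent gene (x axis), with the dashed line at equality. The 4 labelled pseudogenes that passed the test, EIF3FP3, RPL7P9, NONOP2 and RPL3P4, all lie below the line and below 0.

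NONOP2 is a copy of NONO, which encodes a protein of nuclear paraspeckles. It had 2.91, 3.49 and 2.57 CPM at 125 µM, 7.94, 6.88 and 4.04 CPM at 2.5 µM, and 6.50, 6.93 and 7.18 CPM in DMSO. All 125 µM libraries were below all 6 others, at -1.12 over DMSO (SE 0.24, adjusted p = 0.00215) and -1.12 over 2.5 µM (SE 0.23, adjusted p = 0.00576). NONO was at -0.06 over DMSO (SE 0.08, adjusted p = 0.559). The printed stretch differs from NONO at 13 of 60 positions, so that reads from NONOP2 and NONO differ there.

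RPL3P4 copies RPL3, a protein of the large ribosomal subunit, and differs from it at 2 positions of the printed stretch. Over all 423 aligned bases it was 99.5% identical to RPL3. Only 22.2% of its stretches of 50 bases were absent from the parent's transcripts, so its level is uncertain. RPL3P4 had 1.70, 2.16 and 3.30 CPM at 125 µM, 2.01, 4.09 and 2.42 CPM at 2.5 µM, and 5.14, 4.35 and 6.93 CPM in DMSO. All 6 TBOEP libraries were below all DMSO libraries, at -1.30 for 125 µM (SE 0.33, adjusted p = 0.00569) and -0.85 for 2.5 µM (SE 0.31, adjusted p = 0.0863), the second short of the threshold. RPL3 was at 0.12 at 125 µM (SE 0.09, adjusted p = 0.287), and at 2.5 µM it was called higher than DMSO, at 0.31 (adjusted p = 0.0343). Per 100 RPL3 reads there were 0.124 ± 0.0477 on RPL3P4 at 125 µM, 0.128 ± 0.0444 at 2.5 µM and 0.307 ± 0.0716 in DMSO (SD, n = 3 each). Among the other pseudogenes of ribosomal proteins, RPL7P9 fell by 0.82 (SE 0.31, adjusted p = 0.0443), a call that ended with upper-quartile scaling, with DESeq2, without a filter and without any 1 of 6 libraries (all 3 at 125 µM, the second at 2.5 µM, the first and the third in DMSO). RPL13AP25 was at -0.58 (SE 0.43, adjusted p = 0.307) and RPL14P1 at 0.45 (SE 0.36, adjusted p = 0.345).

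EIF3FP3, named after its values were seen, is a copy of EIF3F, a subunit of translation initiation factor eIF3. The pseudogene had 7.40, 4.81 and 5.87 CPM at 125 µM, 7.94, 7.44 and 7.27 CPM at 2.5 µM, and 7.97, 8.90 and 10.5 CPM in DMSO. Its 125 µM libraries were all below its DMSO libraries, at -0.58 (SE 0.20, adjusted p = 0.0333), whereas EIF3F rose by 0.23 (SE 0.08, adjusted p = 0.0310). The call of EIF3FP3 ended with DESeq2, without the second or the third 125 µM library and without the second or the third DMSO library.

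AC005077.14, a processed pseudogene 3961 bp from MDH2, was the other member called at 2.5 µM. It had 69.7, 47.4 and 56.2 CPM at 125 µM, 52.7, 58.5 and 46.9 CPM at 2.5 µM, and 77.9, 64.5 and 74.7 CPM in DMSO. The 2.5 µM libraries were below all DMSO libraries, at -0.44 (SE 0.13, adjusted p = 0.0456), while the 125 µM group overlapped DMSO, at -0.33 (SE 0.13, adjusted p = 0.0578). The call at 2.5 µM ended with upper-quartile scaling and without any 1 of 5 libraries (the third at 125 µM, the first and the third at 2.5 µM, the first and the third in DMSO).

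OR2I1P and OR7E38P derive from olfactory receptor genes. OR2I1P had 3, 7 and 1 reads at 125 µM, 29, 15 and 2 at 2.5 µM, and 24, 9 and 15 in DMSO. In CPM the 125 µM libraries were below all 6 others, at -2.43 over DMSO (SE 0.50, adjusted p = 0.00157) and -1.96 over 2.5 µM (SE 0.51, adjusted p = 0.0195). It lies 1349 bp from UBD, which encodes the ubiquitin-like protein FAT10 and which fell by 1.14 at 125 µM over DMSO (SE 0.28, adjusted p = 0.00517). OR2I1P's call over 2.5 µM ended without the first or second 125 µM library or the first 2.5 µM library. OR7E38P rose by 0.88 at 125 µM (SE 0.33, adjusted p = 0.0480), a call that ended with DESeq2, without a filter and without any 1 of 8 libraries. HMGB1P5 and CTD-2328D6.1, the other pseudogenes with most reads, had log2 fold changes of -0.38 (SE 0.18, adjusted p = 0.0994) and 0.06 (SE 0.30, adjusted p = 0.889) at 125 µM, with overlapping groups.

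**Figure D4:**
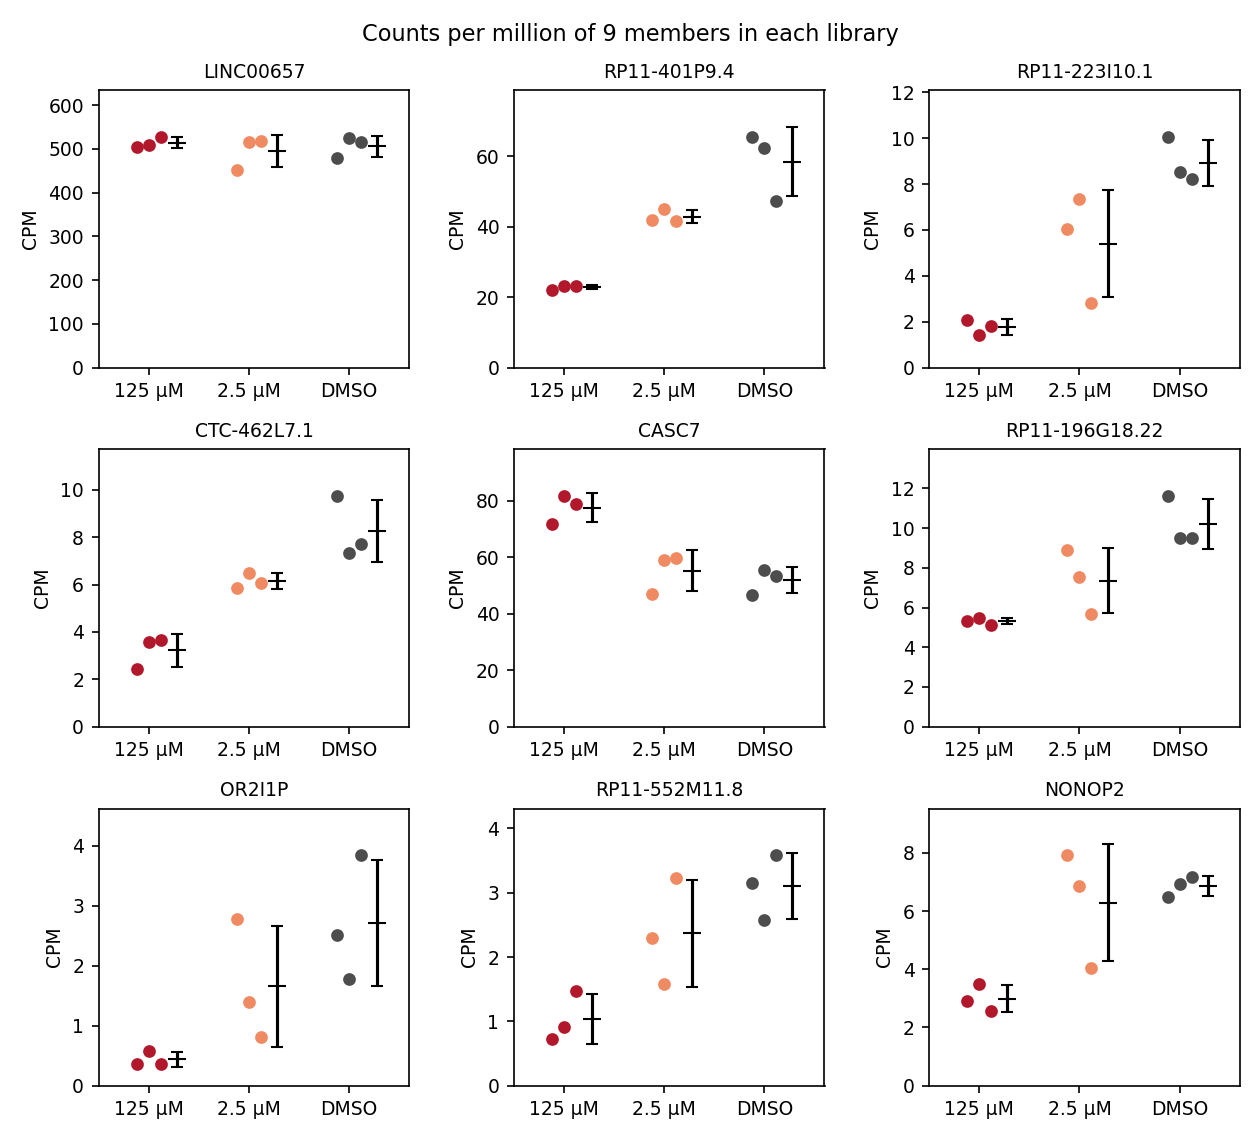
CPM of 9 members, LINC00657 with most reads and the 8 with the smallest adjusted p at 125 µM against DMSO, are shown for each library in the 125 µM, 2.5 µM and DMSO groups, with the mean and SD of 3 libraries drawn beside the points. The groups of LINC00657 overlap, CASC7 is higher at 125 µM, and the other 7 are lower at 125 µM than in DMSO without overlap.

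RN7SL2 and RN7SL3 encode copies of 7SL RNA, the scaffold of the signal recognition particle, and their levels varied widely among libraries of 1 group. 7SL and 7SK are made by RNA polymerase III and lack a poly(A) tail, and the library kit named in the labels' protocols is one for mRNA. RN7SL2 had 37, 16 and 4 reads at 125 µM, 1466, 15 and 6 at 2.5 µM, and 430, 113 and 2 in DMSO. The first 2.5 µM library stood apart, the DMSO libraries spread from 0.513 to 45.1 CPM, and all 3 groups overlapped. The contrast of 125 µM over 2.5 µM passed the test (-4.41, SE 1.37, adjusted p = 0.0422), but without that 1 library it was 0.63 with an adjusted p of 0.81. That call also ended without any 1 of the 3 libraries at 125 µM, with DESeq2 and with robust dispersion. At 125 µM over DMSO RN7SL2 was at -3.33 (SE 1.45, adjusted p = 0.0807), and without the first 2.5 µM library this contrast passed the test with an adjusted p of 0.0034. RN7SL3, too low to be tested, had 4, 2 and 1 reads at 125 µM, 89, 2 and 0 at 2.5 µM, and 32, 4 and 2 in DMSO, so that the first 2.5 µM and the first DMSO library were high in both rows, and the second DMSO library in RN7SL2 alone. Both rows are near-identical gene copies, so reads of one can be counted on the other.

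RN7SK encodes 7SK RNA, which holds the transcription elongation factor P-TEFb inactive. It had 1.82, 1.33 and 2.94 CPM at 125 µM, 4.11, 3.07 and 2.42 CPM at 2.5 µM, and 4.09, 2.57 and 2.82 CPM in DMSO. The groups overlapped, and the fall at 125 µM over DMSO was -0.91 (SE 0.34, adjusted p = 0.0468). That call ended with upper-quartile scaling, with DESeq2, and without the first or second 125 µM library, the second 2.5 µM library, or the first or the third DMSO library.

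**Figure D5:**
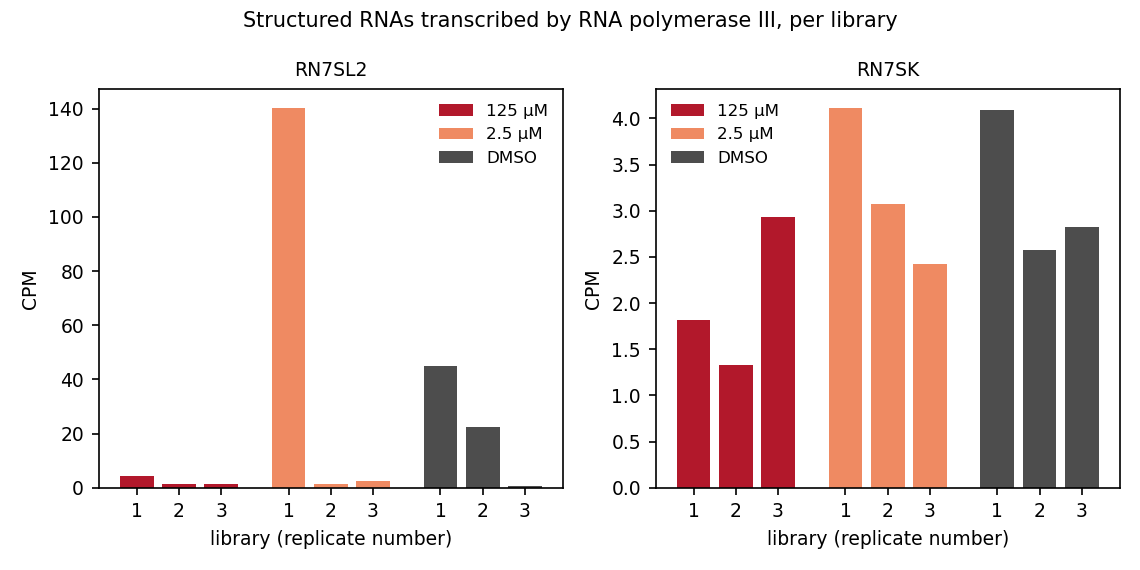
Bars give the CPM of RN7SL2 (left) and RN7SK (right) in each library, ordered as 125 µM, 2.5 µM and DMSO with replicates 1 to 3. For RN7SL2 the first 2.5 µM library and the first and second DMSO libraries exceed 20 CPM and the other 6 stay under 5 CPM.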

How the data were processed

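The deposited total gene counts per feature, whole numbers of exon and intron reads that the authors did not normalise, were used as deposited. The design text of the series names CLC Genomics Workbench for alignment and annotation, the submitters' processing notes name hg19, and the tool's version is not given in the sources used here. The deposited RPKM divides exon reads by exon length, per the file headers, and was 0 for every member. The deposited signal, which the authors quantile-normalised per the series' design text, was at most 0.6 for any member and was not used further.

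filterByExpr kept 12901 features, and edgeR 4.0.16 (R 4.3.3) fitted its quasi-likelihood test to TMM-scaled counts of all 9 libraries in 3 groups, with two-sided contrasts and a threshold of 0.05 after Benjamini-Hochberg adjustment. The SE is the size of the log2 fold change divided by the root of the F statistic. DESeq2 1.42.0, other filters and scalings, robust dispersion, unique reads, a replicate block and each library left out were alternatives. The test was checked on simulated counts. Samples with the same replicate number correlated between -0.241 and 0.184 in their deviations from group means, so the numbers were not taken as pairs. Positions have 1 added to the deposited start. Classes came from member names and GENCODE v44, coding genes and parents (blastn 2.17.0, samtools 1.23.1) from GENCODE v44, and microRNAs from RefSeq on GRCh38.p14.

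Members and lists were chosen with earlier results of these data known. Named were the 12 members with most reads, per contrast the 6 largest rises and falls past the threshold with at least 1 CPM and groups that do not overlap, up to 4 members per list (architectural, structured, microRNA, ribosomal pseudogene), and those at the read limit. Lists of imprinted RNAs, snoRNA hosts and liver tumour RNAs held 0 members. The sequences of some members are not reported here.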

Additional observations from a re-analysis of the deposited data

How the results depend on the processing

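Of 52 calls of members over the 3 contrasts, 19 kept direction and threshold under all 17 alternatives. Members called at 125 µM against DMSO numbered 39, with a range of 22 to 42 when 1 library was left out and 24 with DESeq2, all 24 of them among the 39. Members without an overlapping feature numbered 36, with 20 to 39 on leaving out a library and 21 with DESeq2. At 2.5 µM against DMSO there were 2, with 0 to 7 on leaving out a library, 1 with upper-quartile scaling and 7 without a filter, and the same numbers held for members without an overlapping feature. At 125 µM against 2.5 µM there were 11, with 4 to 13, and without an overlapping feature 10, with 4 to 11. With the replicate number as a block, the counts were 36 at 125 µM against DMSO, 1 at 2.5 µM against DMSO and 10 at 125 µM against 2.5 µM, and samples with the same number did not deviate together. Calls absent under the block were those of RN7SK, RP6-42F4.1, OR7E38P and RP11-485G4.2 at 125 µM against DMSO, of AC005077.14 at 2.5 µM against DMSO and of RP6-42F4.1 at 125 µM against 2.5 µM.

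Signs reversed in LINC00657 (-0.02 without the first DMSO library, range over left-out libraries -0.02 to 0.05), CTD-2328D6.1 (-0.05, -0.02 and -0.11 without the first 125 µM, the second and the third DMSO library, range -0.11 to 0.44), RP11-252A24.7 (-0.02 and -0.04 without the second and the third 125 µM library, range -0.04 to 0.20), LINC00938 (0.01 without the first DMSO library, range -0.12 to 0.01) and RN7SL2 at 125 µM against 2.5 µM (0.63 without the first 2.5 µM library, range -5.28 to 0.63). The difference in the members' share of gene reads between 125 µM and 2.5 µM was -0.00165 percentage points, and 0.00187 without mitochondrial reads and 0.00334 without the first 2.5 µM library (range over left-out libraries -0.00436 to 0.00334). For the other comparisons its sign held, including with LINC00657 left out, an alternative chosen after seeing the data. The causes were not tested. Depth limits members near 100 reads over 9 libraries.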
